A study of Mus musculus with 9 samples.

Results

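The data describe 5 mouse genes of 1 receptor system in the ovary: the peptide gene Adm, the receptor gene Calcrl and the genes of its modifying partners, Ramp1, Ramp2 and Ramp3. They were taken by symbol from a table of 22544 genes and assembled loci, and all 5 were in it. The 5 were chosen by symbol with results of these libraries in view: the values behind the choice were those of Ramp1, which had ranked among the genes with the smallest p in the HBOT against CTX comparison. Their levels are therefore a description, given with no test. The unit is FPKM, fragments scaled to transcript length and to the mapped fragments of the library, which allows levels of different genes to be set side by side.

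Polyadenylated RNA of mouse ovary was read in 9 libraries, 3 in each of 3 groups. The NC libraries carry neither treatment. The CTX libraries bear the usual abbreviation of cyclophosphamide, an alkylating drug that injures follicles, and the HBOT libraries received CTX together with hyperbaric oxygen, per the design text. Strain, age, doses and the animals behind each library are not stated in the labels or the design text. The HBOT animals shared the drug with the CTX animals, and no group had hyperbaric oxygen alone.

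Adrenomedullin, the product of Adm, is a small amidated peptide that widens blood vessels and keeps blood and lymph vessels tight. It acts through the calcitonin receptor-like receptor, a cell-surface receptor that does not reach the membrane or bind its ligand without a receptor activity-modifying protein (RAMP). The partner sets the ligand: with RAMP1 the receptor binds calcitonin gene-related peptide (CGRP), and with RAMP2 or RAMP3 it binds adrenomedullin. In the ovary, endothelial cells, which carry Calcrl and Ramp2, line the vessels of the follicle wall and the corpus luteum, and CGRP is best known as a peptide of sensory nerves.

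Promoter sequences of RefSeq, on build GRCm38.p6, were at hand for 4 of the 5 genes. The FPKM were made on GRCm39, so these coordinates belong to the sequence table and not to the deposited values. The 250 bases before the start site are shown for Adm, the ligand, and for Ramp1 and Ramp3, the partners whose levels ranged most widely over the libraries. All are written 5′ to 3′ on the strand of the gene. Capitals mark GC boxes (GGGCGG) and TATA box cores (TATAA), on either strand. These 2 motifs were added after the sequences had been seen.
Adm, chr7:110627407-110627656, + strand: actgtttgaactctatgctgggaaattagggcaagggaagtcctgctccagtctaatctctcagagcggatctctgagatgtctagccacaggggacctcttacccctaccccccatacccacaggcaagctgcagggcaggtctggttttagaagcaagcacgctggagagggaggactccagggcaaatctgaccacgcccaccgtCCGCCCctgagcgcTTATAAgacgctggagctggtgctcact
Ramp1, chr1:91179572-91179821, + strand: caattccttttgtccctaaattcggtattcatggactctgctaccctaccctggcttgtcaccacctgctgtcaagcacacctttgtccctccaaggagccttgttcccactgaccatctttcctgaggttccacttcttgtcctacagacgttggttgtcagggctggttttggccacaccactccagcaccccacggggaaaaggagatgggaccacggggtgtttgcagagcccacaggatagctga
Ramp3, chr11:6658283-6658532, + strand: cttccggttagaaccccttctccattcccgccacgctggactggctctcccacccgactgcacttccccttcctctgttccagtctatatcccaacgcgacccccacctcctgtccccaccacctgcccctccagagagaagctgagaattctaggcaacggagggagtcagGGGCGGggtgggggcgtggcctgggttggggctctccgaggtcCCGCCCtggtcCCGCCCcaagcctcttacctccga

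The 3 windows differ in what they hold. The Adm window has a TATA core on both strands, overlapping, from 28 and 27 bases before the start site, and 1 GC box from 42 bases before it. The Ramp3 window has 3 GC boxes, from 78, 35 and 24 bases before the start, and no TATA core, and 65.2% of its bases are G or C. The Ramp1 window has neither motif and 54% G or C. Of 32851 windows of the same length, 32.7% held a GC box and 22.8% a TATA core. The hypoxia response element core (ACGTG), the cAMP response element (TGACGTCA), its half-site (TGACG) and the AP-1 site (TGANTCA), searched on both strands, the half-site lying within the full element, were in none of the windows of Adm, Calcrl, Ramp1 and Ramp3. They were in 16.6%, 1.55%, 17.8% and 6.75% of all windows.

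The libraries held ovary. The oocyte markers Gdf9 and Zp3 and the granulosa marker Foxl2 were at 23.2 FPKM or more in all 9. FPKM summed to between 394046 and 420058 a library. Sequencing depth cannot be read from FPKM. Nothing in the labels ties a replicate to an animal of its own, so the p-values below measure the spread between libraries, which may be technical. HBOT replicate 2 stood apart: 1637 genes differed by over 1 on the log2 scale from the remaining 8, against 173 to 347 such genes for each other library. Most listed ovulatory genes were high in it, the growth factor gene Areg at 145 FPKM against 0.481 or less in the others. CTX replicate 1 alone held the adipocyte gene Adipoq, at 5.24 FPKM against 0 in the other 8. Values are therefore also given without these libraries where they move a result.

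Differences are given as log2(FPKM + 1) of the first group minus the second, with the standard error of a limma fit of all 9 libraries. This scale understates the change of low genes such as Ramp1. The test covered the 13338 genes that reached 1 FPKM in 3 or more libraries. All 5 genes passed that filter, Ramp1 with 7 libraries at 1 FPKM or more, the 3 NC libraries among them. By limma 0% of the tested genes had a Benjamini-Hochberg adjusted p under 0.05 in any of the comparisons, so none of the 5 did. At an unadjusted p under 0.05 by limma, 699 genes were higher and 366 lower in CTX against NC (5.24% and 2.74% of those tested), 322 and 490 in HBOT against CTX (2.41% and 3.67%), and 830 and 754 in HBOT against NC (6.22% and 5.65%). The splits depend on the scaling: median-of-ratios scaling gave 553 and 496 for the first comparison and 445 and 399 for the second, and scaling to TPM gave 680 and 928 for the third. The comparisons share groups, so the values of 1 gene in them are not independent.

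Calcrl, the receptor, was low and varied little. It stood at 3.28, 2.86 and 2.66 FPKM in NC replicates 1, 2 and 3. The CTX libraries had 3.07, 3.06 and 2.26 and the HBOT libraries 3.27, 2.03 and 2.27. The order of the means was NC (2.93 ± 0.317, SD, n = 3), CTX (2.79 ± 0.467) and HBOT (2.53 ± 0.659), and the libraries of every pair of groups overlapped. The highest library was 1.62 times the lowest. The log2 difference was -0.06 (SE 0.17) for CTX against NC, -0.11 for HBOT against CTX and -0.17 for HBOT against NC. Each of these was no larger than its standard error. The first turned to 0.05 without CTX replicate 3, and HBOT against CTX was -0.01 without HBOT replicate 2.

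Ramp2, the partner that makes Calcrl an adrenomedullin receptor, was by far the most abundant of the 5. It had 29.7, 30.2 and 35.7 FPKM in the NC libraries. The CTX libraries had 41.7, 38.9 and 41.3 and the HBOT libraries 44.3, 32.9 and 39.2. All 3 CTX libraries thus lay above all 3 NC libraries, which held for 13.2% of the tested genes, while HBOT replicate 2 fell among the NC libraries. The group means were 31.9 ± 3.33 in NC, 40.6 ± 1.50 in CTX and 38.8 ± 5.70 in HBOT, a log2 difference of 0.34 (SE 0.13) for CTX against NC and 0.27 (SE 0.13) for HBOT against NC. CTX and HBOT did not differ beyond their spread (-0.07, SE 0.13), and without HBOT replicate 2 that difference was 0.04. In bulk tissue, fewer cells of a type and less RNA per cell cannot be told apart.

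The blood vessel markers overlapped between the groups by their sum. The 19 listed genes of blood endothelium, among them Pecam1 and Cdh5, the junction proteins of endothelial cells, summed to 248 to 265 FPKM in NC, 245 to 294 in CTX and 210 to 269 in HBOT. Of the 19, 7 were higher and 12 lower in CTX against NC, with a median log2 difference of -0.08 against 0.05 over all genes tested. In HBOT 3 were higher and 16 lower, both against CTX and against NC. The medians were -0.07 against CTX and -0.15 against NC, beside -0.07 and -0.01 over all genes tested. Singly, 2 of the 19, Egfl7 and Sox18, had every CTX library above every NC library, as had 13.2% of the tested genes. Cdh5 had every CTX library below every NC library, as had 7.8%. Set against that sum, Ramp2 was at 11.2%, 12.2% and 14.2% in NC, 17.0%, 15.1% and 14.1% in CTX and 16.4%, 15.7% and 15.4% in HBOT. CTX replicate 3 overlapped NC on this measure, and the HBOT libraries did not. In HBOT replicate 2 the low Ramp2 went with the lowest endothelial sum, and their ratio was within the range of the CTX libraries. Calcrl was 0.768% to 1.26% of the endothelial sum over the 9 libraries, with no separation of the groups. The part of cell numbers in these values was not tested.

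**Figure D1:**
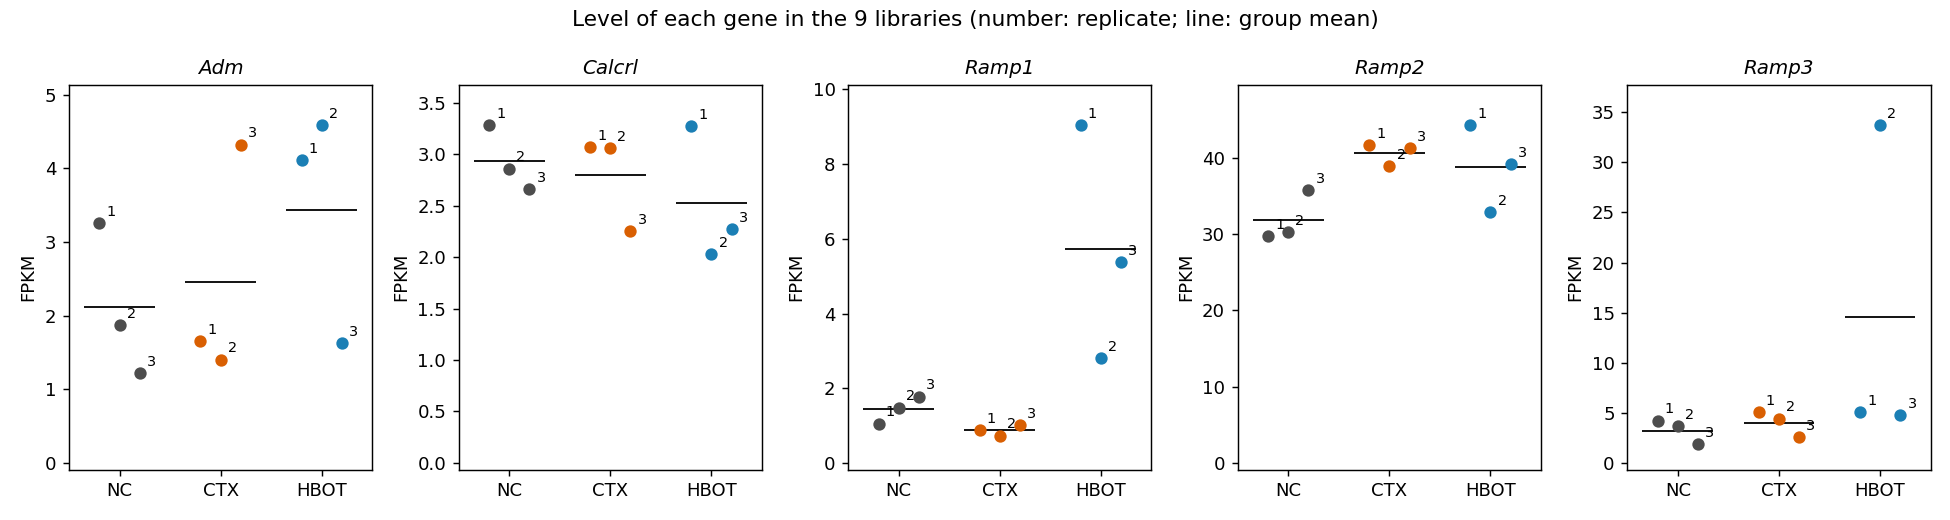
Level in FPKM (vertical axis, a scale per gene, from 0) of Adm, Calcrl, Ramp1, Ramp2 and Ramp3 in the NC, CTX and HBOT libraries. Points are libraries, numbered by replicate, and lines are group means. Ramp1 is above the other groups in all 3 HBOT libraries, between 2.80 and 9.04, while the Ramp3 mean of HBOT rests on replicate 2 at 33.7.

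Ramp1, the partner that makes Calcrl a CGRP receptor, was at the bottom of the tested range in NC and CTX and higher in HBOT. The NC libraries had 1.05, 1.48 and 1.77 FPKM. The CTX libraries had 0.870, 0.730 and 1.01. The HBOT libraries had 9.04, 2.80 and 5.38, each above every library of the other groups. The order of the means was HBOT (5.74 ± 3.13 FPKM), NC (1.43 ± 0.363) and CTX (0.871 ± 0.142), and neighbours in that order did not overlap. HBOT was 6.59 times CTX and 4.0 times NC by the means, with log2 differences of 1.74 (SE 0.31) and 1.37 (SE 0.31). For CTX against NC the log2 difference was -0.37 (SE 0.31).

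The chosen pattern of Ramp1 had the following background. Every HBOT library was above every CTX library for 3.76% of the tested genes and above every NC library for 10.9%, and every CTX library was below every NC library for 7.8%. Ramp1 was among those by the choice of the genes, and nothing is read from it. Within HBOT the levels spread widely, replicate 1 having the highest and replicate 2, the library that stood apart, the lowest value. Without replicate 2 the HBOT mean was 7.21 FPKM and the log2 difference 2.10 against CTX. Without replicate 1, the highest, it was 1.40. With a pseudocount of 0.1 in place of 1 the difference was 2.45, as the scale is less compressed for a low gene.

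Other cell types were examined beside Ramp1. The 13 genes of smooth muscle and pericytes, cells that sheathe vessels, summed to 446 to 619 FPKM in HBOT, 403 to 462 in CTX and 402 to 485 in NC. In HBOT against CTX 10 of the 13 were higher, with a median log2 difference of 0.22 against -0.07 over all genes tested. The 7 genes of nerve and glia summed to 103 to 127 FPKM in HBOT, 73.1 to 100.2 in CTX and 55.4 to 71.0 in NC, most of it Uchl1, which oocytes also express. The glial marker Sox10 was at 0.0614 FPKM or less in every library. S100b, also glial, was at 8.02 FPKM in HBOT replicate 1 and between 0.583 and 2.15 in the other 8 libraries. The part of these cells in the Ramp1 levels was not tested.

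Ramp3, the other adrenomedullin partner, was high in 1 library. The NC libraries had 4.22, 3.64 and 1.84 FPKM and the CTX libraries 5.08, 4.41 and 2.56. HBOT replicates 1 and 3 had 5.09 and 4.77, and HBOT replicate 2 had 33.7. That library was 6.62 times the highest of the other 8, which ranged from 1.84 to 5.09. The HBOT mean of 14.5 ± 16.6 FPKM therefore describes no library of the group. The log2 difference of HBOT against CTX was 1.13 (SE 0.63) with replicate 2 and 0.28 without it, and against NC 1.38 (SE 0.63) and 0.53. CTX against NC was 0.26 (SE 0.63), with overlapping libraries, and -0.0076 without NC replicate 3. All 3 HBOT libraries lay above the NC libraries, as for 10.9% of the tested genes.

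Most of the listed ovulatory genes were high in the same library as Ramp3. The 14 listed genes of that response, which granulosa and cumulus cells turn on after the gonadotropin surge, summed to 1290 FPKM in HBOT replicate 2, against 30.6 to 122 in the other 8 libraries. Ptgs2, the prostaglandin synthase of ovulation, was at 41.3 FPKM there and at 0.137 or less elsewhere. Ereg, at 361 FPKM, Sult1e1, at 223, and Tnfaip6, at 188, made up much of the sum. Runx2, Cited4 and Edn2, at 21.7, 37.4 and 1.05 FPKM there, were each within the range of the other libraries. The 7 genes of lymphatic endothelium, where adrenomedullin signalling is known to act, summed to 176 to 197 FPKM in HBOT, above the 132 to 143 of NC and inside the 110 to 232 of CTX. In HBOT replicate 2 that sum held 51.6 FPKM of Pdpn, which was at 6.89 to 17.6 elsewhere. Lyve1 was also highest there, at 8.41 FPKM against 1.44 to 2.79 elsewhere. Ccl21a, the most abundant of the list, was at 106 there against 110 to 116 in NC. Flt4 and Mmrn1, at 3.98 and 3.08 FPKM there, were within the range of the other libraries. The defining regulator of these cells, Prox1, was at 0.646 ± 0.111 FPKM in NC, 0.719 ± 0.198 in CTX and 0.685 ± 0.201 in HBOT. Its lowest value was 0.454 FPKM, in HBOT replicate 2. The part of the ovulatory state in the Ramp3 level was not tested.

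The make-up of the RAMP transcripts followed from these levels. Ramp2 held 84.9%, 85.5% and 90.8% of the summed RAMP FPKM in the NC libraries and 87.5%, 88.3% and 92.0% in the CTX libraries. It held 75.8% and 79.4% in HBOT replicates 1 and 3, where Ramp1 had 15.5% and 10.9%, against 1.66% to 4.51% in NC and CTX. In HBOT replicate 2 Ramp2 and Ramp3 were nearly equal, at 47.4% and 48.6%, and Ramp1 had 4.03%, inside the NC range. The 3 HBOT libraries thus had the lowest Ramp2 shares of the 9, in replicates 1 and 3 beside a higher Ramp1 and in replicate 2 beside a higher Ramp3.

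RAMP transcripts exceeded those of the receptor in every library. The summed RAMP FPKM was 10.7, 12.4 and 14.8 times Calcrl in NC, 15.5, 14.4 and 19.9 times in CTX, and 17.8, 34.2 and 21.7 times in HBOT. Ramp1 alone was below Calcrl in all NC and CTX libraries, at 0.239 to 0.667 of it, and above it in all HBOT libraries, at 2.76, 1.38 and 2.37 times. Transcript ratios do not give the ratio of the proteins.

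**Figure D2:**
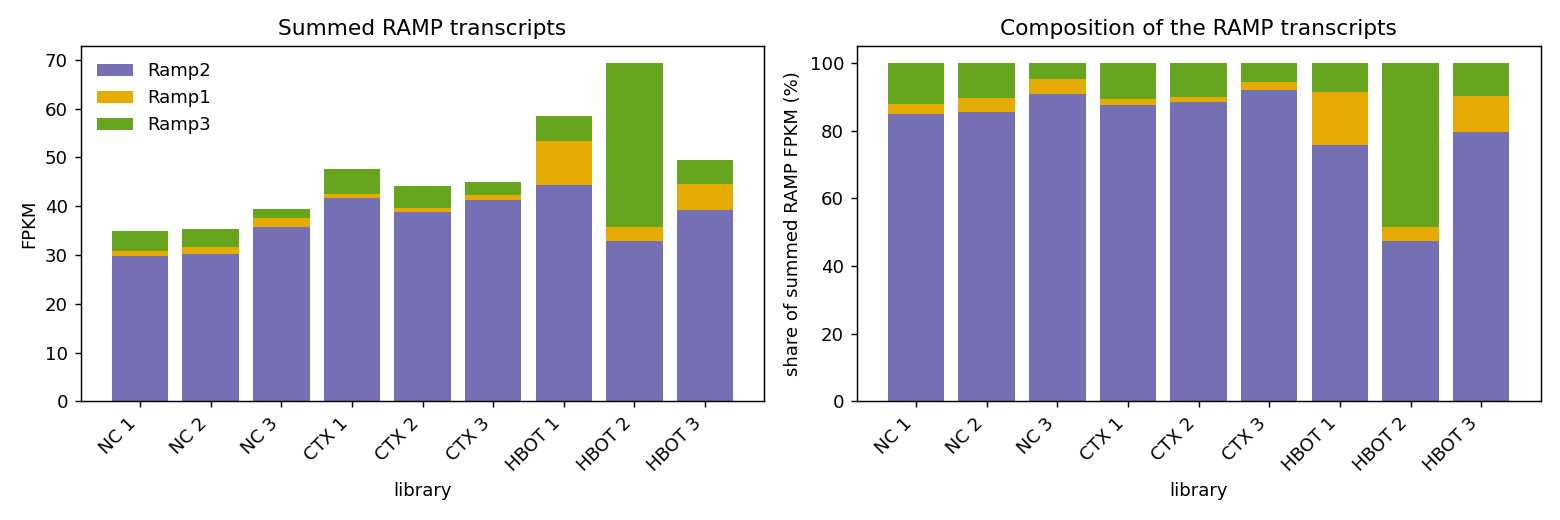
Summed FPKM of Ramp1, Ramp2 and Ramp3 in each library (left, FPKM) and the share of each in that sum (right, percent). Ramp2 makes up 84.9% or more in the NC and CTX libraries, Ramp1 reaches 15.5% in HBOT replicate 1 and Ramp3 48.6% in HBOT replicate 2.

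Adm, the adrenomedullin gene, was low and varied more within groups than between them. The NC libraries had 3.26, 1.87 and 1.22 FPKM. The CTX libraries had 1.66, 1.40 and 4.32 and the HBOT libraries 4.11, 4.58 and 1.62. Each group held libraries under 2 and libraries above 3 FPKM, and every pair of groups overlapped. From low to high the means were 2.12 ± 1.04 in NC, 2.46 ± 1.62 in CTX and 3.44 ± 1.59 in HBOT, and neighbours did not differ beyond their spread. The log2 difference was 0.11 (SE 0.40) for CTX against NC, 0.38 (SE 0.40) for HBOT against CTX and 0.49 (SE 0.40) for HBOT against NC. The first was -0.25 without CTX replicate 3.

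Adm is a known target of the hypoxia-inducible factors. The 18 listed hypoxia targets had a median log2 difference of -0.01 in HBOT against CTX, with 9 higher and 9 lower, against -0.07 over all genes tested. None passed an adjusted p of 0.05 by limma. Bnip3, a mitophagy receptor, had the smallest p of the list, with 28.8 ± 16.3 FPKM in HBOT against 52.7 ± 12.2 in CTX (-1.04, SE 0.45, adjusted p = 0.710 by limma). HBOT replicate 2 had 10.0 FPKM of it, and without that library the difference was -0.43. Against NC it was -1.30 (SE 0.45, adjusted p = 0.354 by limma), and -0.69 without HBOT replicate 2. All HBOT libraries were below all NC libraries for Bnip3, as for 9.6% of the tested genes. Of the 18 targets 10 were higher and 8 lower in HBOT against NC. Pfkfb3, a further target, was at -0.74 (SE 0.34) in HBOT against CTX, and at -0.82 without HBOT replicate 2. The glucose transporter Slc2a1 was at 55.0 FPKM in HBOT replicate 2 and at 9.51 to 12.1 in the other 8 libraries. The prolyl hydroxylase Egln3 was at 13.5 FPKM in HBOT replicate 2 and at 2.24 or less elsewhere.

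**Figure D3:**
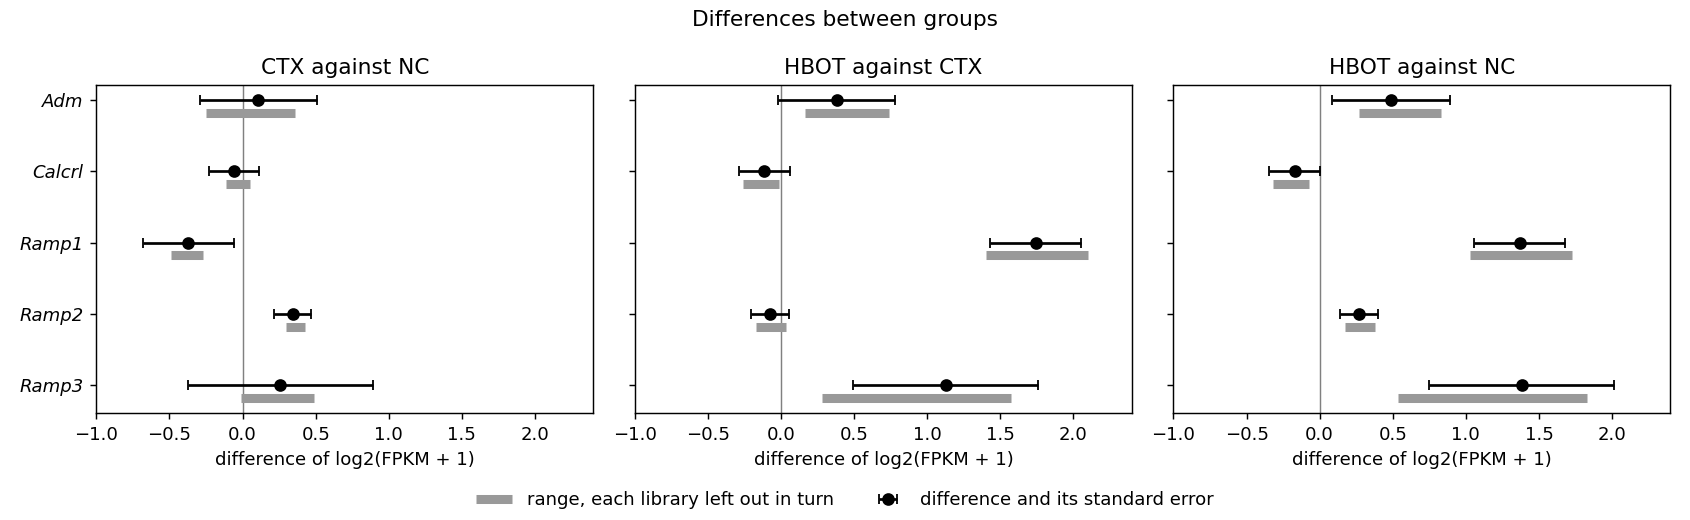
Differences of log2(FPKM + 1) between groups (horizontal axis) for the 5 genes, with their standard errors, and the range when each library was left out in turn (grey). Ramp3 in HBOT against CTX goes down from 1.13 to 0.28 when HBOT replicate 2 is left out, and the Ramp1 differences are those behind the choice of the genes and are drawn as a description.

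Among the other peptides of the family, Adm2 was lowest in NC. It encodes intermedin, a peptide that acts on the same receptor with any of the RAMPs. Adm2 had 1.40, 1.44 and 1.17 FPKM in NC, 2.30, 2.56 and 2.15 in CTX, and 2.33, 2.22 and 3.48 in HBOT. All 6 libraries of CTX and HBOT were above all 3 of NC, which held for 13.2% of the tested genes in CTX and 10.9% in HBOT, and CTX and HBOT overlapped. The log2 difference was 0.51 (SE 0.16, adjusted p = 0.448 by limma) for CTX against NC and 0.64 (SE 0.16, adjusted p = 0.274 by limma) for HBOT against NC, so neither passed. Of the 10 listed oocyte markers 10 had a positive difference in CTX against NC, with a median of 0.62 against 0.05 over all genes tested, and 0 passed the adjusted p. Their sum was 124 to 179 FPKM in NC, 194 to 299 in CTX and 286 to 325 in HBOT. The 8 macrophage markers also separated from NC by their sum, with 95.7 to 107 FPKM in NC, 122 to 164 in CTX and 120 to 185 in HBOT. In CTX against NC 6 were higher and 2, Cd68 and Itgam, lower, and in HBOT against NC all 8 were higher by the mean. In HBOT replicate 2 Adgre1, at 1.50 FPKM, was below all NC libraries, and Csf1r, at 4.73, was inside their range. The part of either cell type in the Adm2 levels was not tested.

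The CGRP genes reached 1 FPKM in 1 library only, HBOT replicate 2. Calca, which encodes both calcitonin and CGRP, was at 6.43 FPKM in HBOT replicate 2 and at 0.236 or less in the other 8. Calcb, which encodes the second form of CGRP, was at 10.6 FPKM there and at 0.156 or less elsewhere. Both fell below the filter, since 1 library reached 1 FPKM, and were not tested. Calca and Calcb are close in sequence, so the division of reads between them is uncertain. The library with the CGRP transcripts was the one with the highest Ramp3 and the lowest Ramp1 of the HBOT group. Iapp, the gene of amylin, was listed at 0 in every library, and Calcr, the calcitonin receptor, stood at 0.0273 FPKM or less.

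**Figure D4:**
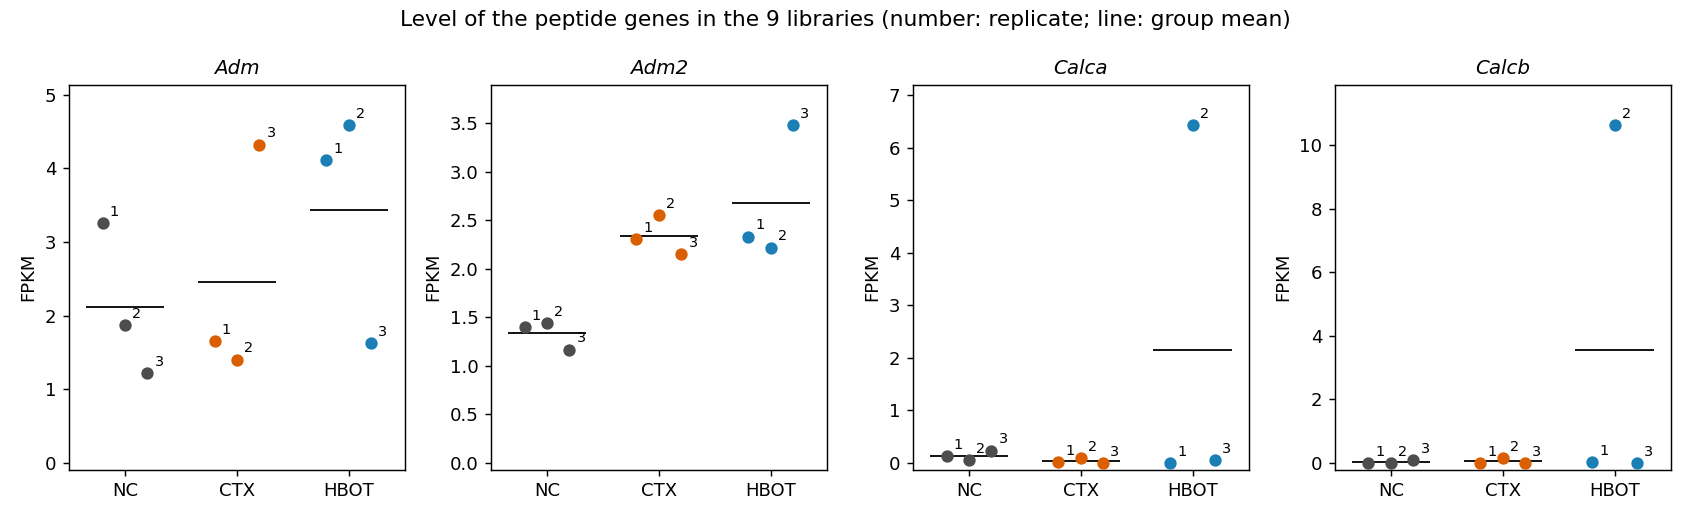
Level in FPKM (vertical axis, a scale per gene, from 0) of the peptide genes Adm, Adm2, Calca and Calcb in the NC, CTX and HBOT libraries; points are libraries, numbered by replicate, and lines are group means. Adm2 is above NC in all CTX and HBOT libraries, and Calca and Calcb reach 6.43 and 10.6 in HBOT replicate 2 and stay at 0.236 or less elsewhere.

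The levels of the peptide processing genes differed widely. Of 13 listed ligand and processing genes 8 were tested, and 0 passed in any comparison by limma. At an unadjusted p under 0.05 by limma, 1 was higher and 1 lower in CTX against NC (5.24% and 2.74% of all genes tested), 0 and 1 in HBOT against CTX (2.41% and 3.67%), and 1 and 3 in HBOT against NC (6.22% and 5.65%). The prohormone convertase genes Pcsk1 and Pcsk2 were at 0.0810 and 0.325 FPKM or less and were not tested. Pam, the enzyme that amidates adrenomedullin and CGRP, had 51.9 ± 2.86 FPKM in NC, 46.6 ± 15.2 in CTX and 33.3 ± 6.29 in HBOT. Cpe, a carboxypeptidase that trims peptide precursors, had 555 ± 88.5 in NC, 433 ± 37.9 in CTX and 343 ± 23.1 in HBOT, with no overlap between groups (HBOT against NC -0.68, SE 0.13, adjusted p = 0.235 by limma). Every HBOT library was below every NC library for 9.6% of the tested genes and below every CTX library for 6.44%. For 7.8% every CTX library was below every NC library. With a weight estimated for each library Cpe had an adjusted p of 0.0462 by limma in HBOT against NC, where that setting called 181 genes. Without HBOT replicate 2 it was 0.234 by limma. The peptidase Ide had 34.7 ± 2.82, 29.7 ± 2.34 and 25.4 ± 5.28 FPKM (HBOT against NC -0.46, SE 0.16). Mme, the neprilysin gene, whose product cleaves adrenomedullin, had 5.22 ± 0.574, 4.11 ± 1.90 and 4.95 ± 2.80 FPKM. The proteases Ece1 and Furin ranged from 37.0 to 60.4 and from 20.8 to 52.6 FPKM over the 9 libraries, with Furin highest in HBOT replicate 2.

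Receptors beside Calcrl were few. Of 19 listed receptors of the family or known RAMP partners 4 were tested, 0 of them at an unadjusted p under 0.05 in any comparison, and 7 reached 1 FPKM in any library. Ackr3, an atypical receptor that binds adrenomedullin, had 5.69 ± 0.438 FPKM in NC, 6.09 ± 1.01 in CTX and 7.10 ± 2.59 in HBOT, with 10.1 in HBOT replicate 2. Without that library its difference of HBOT against CTX turned from 0.16 to -0.09. Pth1r, the parathyroid hormone receptor, had 7.59 ± 0.533, 8.14 ± 1.41 and 6.44 ± 3.80 FPKM, with 2.08 in HBOT replicate 2. Gpr182, a receptor of endothelium, had 2.28 ± 0.579, 3.20 ± 0.829 and 2.43 ± 0.558 FPKM. Crcp, which encodes a receptor component protein that couples Calcrl to its signal, had 14.4 ± 1.23, 13.7 ± 0.496 and 13.1 ± 1.79 FPKM. Crhr1, Adcyap1r1 and Gper1 fell below the filter, with highest values of 1.26, 1.06 and 1.04 FPKM.

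The receptor with its RAMP signals through Gs to cyclic AMP. Of 27 listed genes of that arm 23 were tested and 0 passed by limma. At an unadjusted p under 0.05 by limma, 0 were higher and 1 lower in CTX against NC, 1 and 1 in HBOT against CTX, and 1 and 3 in HBOT against NC, where the shares over all genes tested were 5.24% and 2.74%, 2.41% and 3.67%, and 6.22% and 5.65%. The median log2 difference in HBOT against CTX was 0.06 against -0.07 over all genes tested. Pde3b, a phosphodiesterase that breaks down cyclic AMP, had 2.71 ± 0.548 FPKM in HBOT against 1.58 ± 0.314 in CTX and 1.52 ± 0.159 in NC. It was above both groups in all 3 HBOT libraries (0.52, SE 0.16, adjusted p = 0.710 against CTX by limma). The same held for 3.76% of the tested genes against CTX and for 10.9% against NC. Prkaca, the catalytic subunit of protein kinase A, had 70.6 ± 5.92 FPKM in NC, 62.7 ± 13.1 in CTX and 44.9 ± 5.68 in HBOT (HBOT against NC -0.64, SE 0.17, adjusted p = 0.279 by limma). That adjusted p was 0.0493 with library weights, a setting that called 181 genes, and 0.286 without HBOT replicate 2. Crem, a transcription factor that cyclic AMP induces, was at 171 FPKM in HBOT replicate 2 and at 6.50 to 14.5 in the other 8 libraries. The phosphodiesterases Pde4b and Pde4d, also known to be induced by cyclic AMP, were at 19.0 and 16.1 FPKM there and at 3.38 and 3.14 or less elsewhere. Pde4a went the other way, with 4.40 ± 0.654 FPKM in NC, 3.19 ± 0.266 in CTX and 3.09 ± 0.538 in HBOT. Against NC it differed by -0.36 (SE 0.15) in CTX and -0.40 (SE 0.15) in HBOT, with adjusted p of 0.608 and 0.378 by limma. All CTX and all HBOT libraries were below all NC libraries, as for 7.8% and 9.6% of the tested genes.

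Of 13 genes of desensitisation and trafficking, which switch the receptor off and return it to the surface, all 13 were tested and 0 passed by limma. At an unadjusted p under 0.05 by limma, 2 were higher and 2 lower in CTX against NC (5.24% and 2.74% of all genes tested). The counts were 2 and 0 in HBOT against CTX (2.41% and 3.67%), and 2 and 0 in HBOT against NC (6.22% and 5.65%). Arrb2, a beta-arrestin, had 19.5 ± 1.10 FPKM in NC, 28.2 ± 0.810 in CTX and 30.0 ± 3.36 in HBOT. CTX and HBOT were above NC in all libraries, as were 13.2% and 10.9% of the tested genes, with log2 differences of 0.51 (SE 0.11, adjusted p = 0.296 by limma) and 0.59 (SE 0.11, adjusted p = 0.235 by limma). The macrophage sums given beside Adm2, though not each marker, were separated in the same way. The part of macrophages in the Arrb2 levels was not tested. With a weight estimated for each library the Arrb2 differences had an adjusted p of 0.0393 and 0.0301 by limma. That setting called 123 genes in CTX against NC and 181 in HBOT against NC. Without HBOT replicate 2 the adjusted p were 0.0902 and 0.155 by limma. Slc9a3r1, the gene of NHERF1, a scaffold that binds RAMP3 and holds its receptor at the surface, had 18.2, 26.3 and 37.7 FPKM in HBOT against 16.5, 15.4 and 11.4 in CTX. The NC libraries, at 27.4, 17.5 and 32.7, overlapped HBOT. HBOT against CTX differed by 0.84 (SE 0.29, adjusted p = 0.710 by limma), with all HBOT libraries above all CTX libraries, as for 3.76% of the tested genes. CTX against NC differed by -0.77 (SE 0.29, adjusted p = 0.569 by limma), with all CTX libraries below all NC libraries, as for 7.8%. For Slc9a3r1 the difference of HBOT against NC was 0.07 (SE 0.29). Grk2, a kinase that marks active receptors, differed by 0.27 (SE 0.10) in CTX against NC. Rab5a, also of this list, went the other way, with 38.5 ± 3.05 FPKM in NC, 30.4 ± 2.71 in CTX and 34.1 ± 2.31 in HBOT. Against NC it differed by -0.34 (SE 0.11, adjusted p = 0.474 by limma) in CTX and by -0.17 (SE 0.11) in HBOT. All CTX and all HBOT libraries were below all NC libraries for Rab5a, as for 7.8% and 9.6% of the tested genes. Over all 90 genes of the 5 pathway lists, 66 were tested and 0 passed in any of the comparisons.

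The genes whose levels followed the 5 most closely were found by Pearson correlation of log2(FPKM + 1) over the 9 libraries, among 11525 named genes with a mean of at least 2 FPKM. Ramp1 was most like Ap3b1 (0.92), a subunit of a vesicle coat adaptor, the integrin gene Itgb3 (0.92) and Sema3d (0.91). Ramp3 was most like Mdn1 (0.98), Cebpd (0.98) and Eif3b (0.98), and those values rest in part on HBOT replicate 2: without it they were 0.87, 0.82 and 0.91. Ramp2 was most like Fam181b (0.97), Med6 (0.94) and Usp30 (0.93), Calcrl like Pter (0.95), Cacng7 (0.93) and Zfp935 (0.93), and Adm like Gpcpd1 (0.95), Dnajb5 (0.89) and Ergic2 (0.88). These genes were picked as the highest of 11525 over 9 points that share library composition, and none was among the 5 or the pathway lists. Among the 5 themselves the values ran from -0.42 (Calcrl with Ramp3) to 0.48 (Adm with Ramp3), and without HBOT replicate 2 these 2 pairs stood at 0.47 and 0.10.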

How the data were processed

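Ovary RNA of 9 libraries (NC, CTX and HBOT, 3 each) was measured by poly(A) selection and paired-end sequencing, per the labels' protocols. The authors deposited 1 table of FPKM per gene, a column per library, matched to samples through the names in their descriptions. Per the submitters' processing notes, fastp 0.23.4 and build GRCm39 were used, while aligner, counter and annotation are not given there. Counts cannot be had from FPKM, so depth is unknown and precision comes from the spread between libraries alone. If replicates share an animal, p-values measure technical spread only.

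FPKM were used as log2(FPKM + 1), unscaled, for the 13338 genes that reached 1 FPKM in 3 or more libraries. limma 3.58.1 (R 4.3.3; lmFit, contrasts.fit, eBayes with trend, 6 residual degrees of freedom) was fitted to all 9 libraries, with Benjamini-Hochberg adjustment over all tested genes. The 5 genes carry no p, as they were chosen with earlier results of these data known, as were the 5 pathway lists and 10 cell type lists (202 genes). The rule for naming covered, of each pathway list, up to 3 tested members with the smallest p per comparison. It also covered ligands and receptors that reach 1 FPKM in any library, and the 3 genes most correlated with each of the 5. Not all pathway genes under this rule are named in the text. Calcr, Iapp, Pcsk1, Pcsk2, Slc2a1, Egln3, Crem, Pde4b and Pde4d, and the cell type markers given singly, were named after their values were seen. Nherf1 was matched as Slc9a3r1. Some listed genes are counted with their list but not reported singly here. The fit was tested on simulated data. Alternatives were pseudocount, filter, scaling, fit and library choices. Python 3.11.15, pandas 2.3.3, numpy 2.4.6 and matplotlib 3.10.9 were used.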

Additional observations from a re-analysis of the deposited data

How the results depend on the processing

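Depth could not be assessed from FPKM, and 3 libraries a group limit all comparisons. Genes called by limma, 0 in each comparison, became 31 in a fit of the 2 groups only, 123 with library weights and 16 without both HBOT replicate 2 and CTX replicate 1 for CTX against NC. For HBOT against CTX they became 1 with no filter, 5 with library weights and 2 without those 2 libraries. For HBOT against NC they became 1 with no filter and 181 with library weights. Leaving out 1 library gave 0 to 9 (8 without HBOT replicate 2, 9 without HBOT replicate 3, 1 without NC replicate 1), 0 to 1 (1 without CTX replicate 1, CTX replicate 2 or NC replicate 3) and 0 to 3 (3 without HBOT replicate 3, 1 without NC replicate 1 or NC replicate 3) in the 3 comparisons. At an unadjusted p under 0.05, median-of-ratios scaling gave 553 genes higher and 496 lower in CTX against NC, 445 and 399 in HBOT against CTX, and 875 and 861 in HBOT against NC.

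With a pseudocount of 0.1 Ramp1 was at -0.64 in CTX against NC and 2.45 in HBOT against CTX. Without HBOT replicate 2 Ramp3 went from 1.13 to 0.28 in HBOT against CTX and from 1.38 to 0.53 in HBOT against NC. Sign changes of small differences were seen for Adm in CTX against NC (-0.06 with library weights, -0.25 without CTX replicate 3, -0.11 without NC replicate 3) and for Calcrl in CTX against NC (0.05 without CTX replicate 3, 0.0062 without NC replicate 1). They were also seen for Calcrl in HBOT against CTX (0.03 with library weights, 0.04 without both doubted libraries). Ramp2 in HBOT against CTX turned to 0.0021 with median-of-ratios scaling, 0.07 with library weights, 0.04 without HBOT replicate 2 and 0.05 without both, and Ramp3 in CTX against NC to -0.0076 without NC replicate 3. The filter of 5 FPKM leaves out Adm, Calcrl and Ramp1.

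Ackr3 ran from -0.034 (without CTX replicate 2) to 0.16 in CTX against NC with each library left out, from -0.093 (without HBOT replicate 2) to 0.28 in HBOT against CTX, and from -0.015 (without HBOT replicate 2) to 0.36 in HBOT against NC. It was -0.13 and -0.0019 in the latter 2 with library weights, and -0.18 and -0.015 without both doubted libraries. Pth1r ran from -0.76 to 0.085 (without HBOT replicate 2) in HBOT against CTX and from -0.68 to 0.17 (without HBOT replicate 2) in HBOT against NC. It was 0.085 and 0.14 with library weights, and 0.20 and 0.17 without both. Without HBOT replicate 2, of the 3 genes most like each gene 1 was the same for Adm and Ramp1 and 0 for Calcrl, Ramp2 and Ramp3. The cause was not tested.

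With the replicate number as a block 0 genes were called in each comparison; in this balanced design the block cannot change a difference, only its error. Whether the numbers pair the libraries was not settled, as the check had only 3 libraries a group. Deviations from the group means correlated between -0.29 and 0.16 for same-numbered libraries, and between -0.30 and 0.41 for differently numbered ones.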
